A study of Mus musculus with 18 samples.

Results

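The effect of EPIREGULIN that radial glia, intermediate progenitors and neurons have in common was measured across all genes in all 18 RNA-seq libraries of the study. The libraries came from E14.5 neocortex of C57BL/6J mice. Brain hemispheres were cultured for 24 h in a rotating system called HERO. Control cultures (Ctl) received no EPIREGULIN, and treated cultures (Epi) received human recombinant EPIREGULIN at 50 ng/mL. Neurons (N), radial glia (RG) and intermediate progenitors (IP) were then isolated, which gave 6 groups of 3 libraries that the labels call biological replicates, numbered 1 to 3. Each Epi library was set against the Ctl library of the same population and number, and these 9 pairs, of 9 in the series, make up the comparison. All groups share the strain, the age and the culture. The sources used here do not give how the populations were separated, or whether libraries of the same number came from the same embryos or the same culture day.

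EPIREGULIN is a secreted ligand of the epidermal growth factor (EGF) family. It binds EGFR and ERBB4, receptor tyrosine kinases that signal through the RAS and ERK cascade. Active ERK raises transcription of immediate early genes such as Fos and Egr1, of the ETS factors Etv4 and Etv5, and of feedback inhibitors such as Dusp6 and the Sprouty genes. In the developing neocortex, radial glia line the ventricle and divide to give intermediate progenitors and neurons, and EGF family ligands are known as growth factors for neural progenitors.

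Libraries held between 15.5 and 34.2 M counts, with a median of 24.6 M in the Ctl and 25.3 M in the Epi libraries. Mitochondrially encoded genes took 2.68% to 9.54% of counts. Between treatments both differed by less than the spread of the 9 pairs: the log2 total differed by 0.118 ± 0.307 (SD, n = 9 pairs; two-sided exact sign-flip permutation test, p = 0.273; higher in 5 of 9 pairs) and the share by -0.135 ± 0.653 percentage points (p = 0.539 in the same permutation test; higher in 4 of 9). The smallest p that 9 pairs allow is 0.00391. The markers of radial glia followed the labels. In control libraries Pax6, a radial glia transcription factor, averaged 33.4 ± 10.99 CPM (counts relative to the TMM-scaled library total) in N, 47.1 ± 6.37 in IP and 290 ± 19.2 in RG (SD over 3 libraries each). Eomes, the defining factor of intermediate progenitors, averaged 122 ± 32.7 CPM in IP, 17.4 ± 3.27 in RG and 10.02 ± 3.44 in N. The whole list of 18 intermediate progenitor markers did not separate IP from N. It summed to 1092 to 1224 CPM in Ctl IP, 1045 to 1397 in Ctl N and 540 to 634 in Ctl RG. The neuronal factor Neurod6 averaged 980 ± 175 CPM in N, 750 ± 149 in IP and 2.63 ± 0.641 in RG, and the 26 neuron markers together summed to 18466.5 to 20276.2 CPM in Ctl IP, above the 16208.7 to 17043.1 in Ctl N. The libraries labelled IP thus held neuronal transcripts at levels like those of the libraries labelled N. In bulk samples fewer cells of a type and less RNA per cell cannot be told apart.

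No gene passed the test for a shared effect of EPIREGULIN in either direction. Of 29355 genes tested, 0 (0%) had a Benjamini-Hochberg adjusted p under 0.05 by edgeR's quasi-likelihood test with the 9 pairs as blocks, and the smallest adjusted p was 0.457. At an unadjusted p under 0.05 stood 1502 genes (5.12%), of which 778 (2.65%) were estimated higher and 724 (2.47%) lower in Epi. By other tools, limma voom with quality weights called 0 genes and DESeq2 called 2, Xlr3a and Xlr3b, both lower in Epi and both described below. Without a filter on low counts, which brought 53128 genes into the edgeR fit, 25 genes were called, 5 higher and 20 lower, and all 25 were among the genes tested above. The smallest adjusted p among them was that of an unnamed miRNA gene, at a log2 fold change of -0.63 (adjusted p = 4.02e-25 by edgeR without the filter). Its mean log2 CPM was 6.58, and it did not pass with the filter. The 25 also include Xlr3b, the globin genes Hbb-bs and Hbb-bt, Ddx3y, Eif2s3y and Xist, all described below, and Ythdc1, a nuclear reader of the RNA mark m6A. Ythdc1 averaged 163 ± 11.3 CPM in Ctl IP and 118 ± 10.2 in Epi IP, 169 ± 13.1 and 141 ± 13.7 in N and 121 ± 15.4 and 117 ± 15.5 in RG (SD over 3 libraries). It did not pass with the filter, at a shared log2 fold change of -0.26 (95% interval -0.41 to -0.11, adjusted p = 0.935 by edgeR). The median log2 fold change of all genes was 0.01, and 15763 of 29355 were estimated above 0. The test for an effect that differs among the 3 populations also called 0 of 29355 genes (0%), with 689 (2.35%) at an unadjusted p under 0.05 and a smallest adjusted p of 1.00. The replicate libraries were called biological by the labels, and where pairs of the same number share a source the p-values of the shared effect are too small. What such sharing does to the test among populations was not examined.

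**Figure D1:**
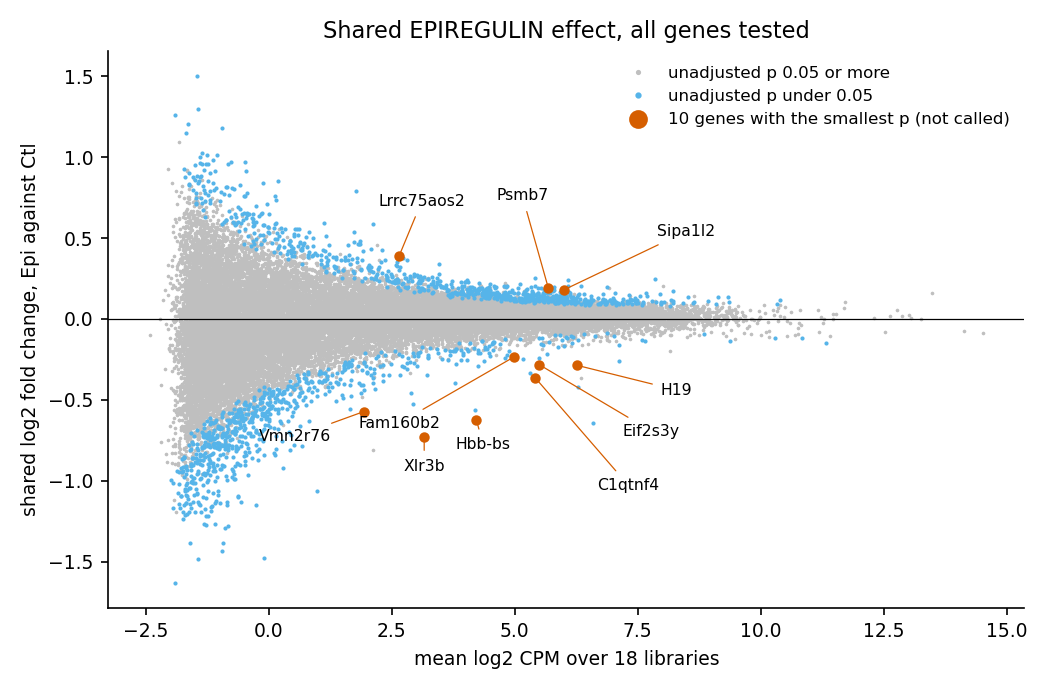
Shared log2 fold change (Epi against Ctl, 9 pairs) against mean log2 CPM for the 29355 genes tested, with genes at an unadjusted p under 0.05 in blue. In orange are the 10 genes with the smallest p of those with an ordinary symbol and a mean log2 CPM of at least 1. The cloud narrows as the level rises, and the 10 orange genes, none of them called, lie between -0.73 and 0.39.

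The libraries gave narrow limits for most expressed genes. Among 16091 genes whose mean log2 CPM was at least 1, the 95% interval of the shared effect lay wholly within a 1.5-fold change in either direction for 15811 (98.3%). Among the 11711 genes whose mean log2 CPM was at least 3 this held for 11702 (99.9%). The median half-width of the interval on the log2 scale was 0.10 for genes at a mean log2 CPM of 7 or more, 0.11 from 5 to 7, 0.15 from 3 to 5 and 0.27 from 1 to 3. Below 1 it was 0.60, and only 18.7% of those 13264 genes had an interval within 1.5-fold. A shared change of a weakly expressed gene was therefore not measurable to the same degree, and an average over populations cannot show changes of opposite direction in different populations. These intervals come from the same fit and cover the spread between the pairs, which the fit takes as independent. Where pairs of the same number share a source, the intervals are too narrow and the shares within 1.5-fold too high.

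**Figure D2:**
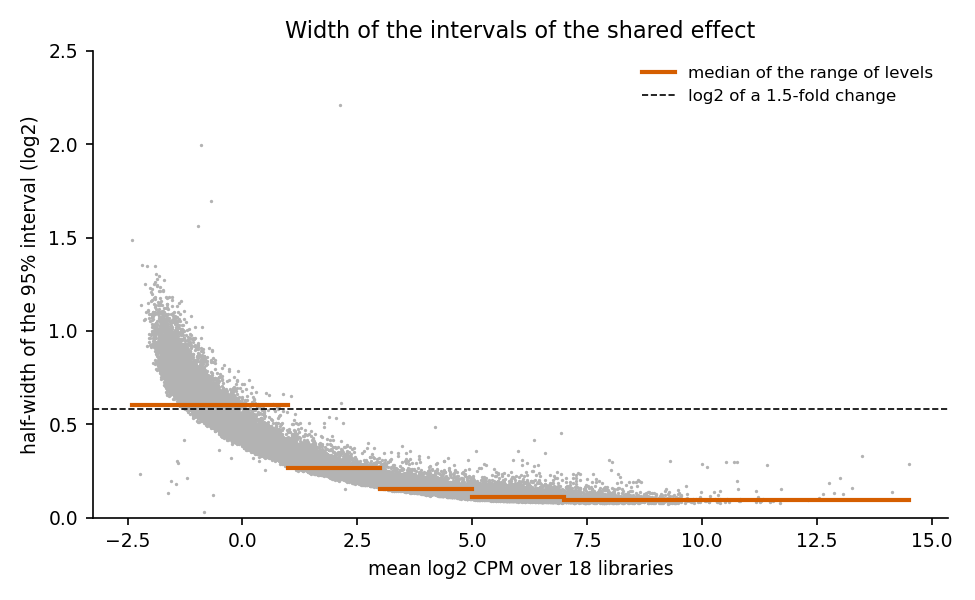
Half-width of the 95% interval of the shared log2 fold change against mean log2 CPM for each of 29355 genes (3 lie above the axis). Orange lines are the medians in 5 ranges of level, from 0.60 at the lowest to 0.10 at the highest, and the dashed line marks the log2 of a 1.5-fold change.

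The ligands and receptors of the EGF family were measured first, as the genes closest to the added protein. None passed the test, and 18 tested members of a list of 19 ligands, receptors and regulators had a median log2 fold change of 0.02, beside 0.01 for all genes. Of these 18, 0 had an unadjusted p under 0.05 and 10 were estimated above 0. Ereg, which encodes mouse EPIREGULIN itself, was near the limit of detection, with 0.0399, 0.187 and 0.864 CPM (lowest, median and highest of 9) in Ctl and 0.0786, 0.264 and 0.485 in Epi. The ranges overlapped, and its interval was wide, with a log2 fold change of 0.25 (95% interval -0.69 to 1.19). The added protein is not read by RNA counts. Hbegf, another ligand of EGFR and ERBB4, had an estimate of 0.01 (-0.19 to 0.22), and Areg, which encodes amphiregulin, had 1 to 13 counts per library and was not tested.

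Egfr, the receptor of EPIREGULIN, was low in all populations. It measured 4.07, 3.13 and 3.34 CPM in Ctl RG (numbers 1 to 3), 1.40, 1.85 and 1.85 in Ctl IP and 2.66, 2.00 and 1.38 in Ctl N. In the Epi libraries of RG it measured 3.13, 3.46 and 2.57 CPM, in those of IP 1.30, 1.24 and 1.254, and in those of N 1.72, 1.33 and 2.01. Only in IP did the 3 Epi libraries all lie below the 3 Ctl libraries, and 7 of 9 pairs were lower. How many of all genes separate in this way within a population was not counted, for this gene or those below. The shared log2 fold change was -0.28 (-0.58 to 0.02, unadjusted p = 0.0646, edgeR adjusted p = 0.935), and the test of a difference among populations gave an unadjusted p of 0.863. Erbb4, the other EPIREGULIN receptor, varied far more by library than by treatment, from 1.62 to 13.6 CPM in Ctl and from 1.70 to 15.8 in Epi, with a shared estimate of 0.09 (-0.11 to 0.30). Erbb2, the partner receptor without a ligand of its own, averaged 54.0 ± 0.789 CPM in Ctl RG and 53.2 ± 3.07 in Epi RG (SD over 3 libraries) and under 4 CPM elsewhere. Its shared estimate was -0.03 (-0.17 to 0.11). Erbb3 had 0.06 (-0.31 to 0.44), with a single pair, IP of number 3, at 1.55 and the other 8 between -0.36 and 0.24. Errfi1, an inhibitor that binds the EGFR kinase domain, had 0.06 (-0.12 to 0.24).

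Targets and feedback inhibitors of ERK signalling did not pass the test either. Of 27 tested members of the ERK list, 0 had an unadjusted p under 0.05 in the direction of higher values and 1 in that of lower values. The median was 0.04, and 18 were estimated above 0, beside 15763 of 29355 over all genes. Dusp6, a phosphatase of ERK that ERK induces, was measured at 46.4 ± 7.86 CPM in Ctl IP and 51.6 ± 1.59 in Epi IP, at 7.26 ± 0.491 and 7.42 ± 0.712 in RG and at 10.6 ± 4.05 and 12.2 ± 0.847 in N (SD over 3 libraries). The treated and control libraries overlapped in every population, and its shared log2 fold change was 0.15 (-0.04 to 0.35, adjusted p = 0.935 by edgeR). Spry2 had 0.06 (-0.10 to 0.22), Etv4 -0.12 (-0.35 to 0.10) and Etv5 0.11 (-0.08 to 0.29). Hmga2, a chromatin protein of early progenitors, was the member with an unadjusted p under 0.05, at -0.21 (-0.38 to -0.04, unadjusted p = 0.0171, edgeR adjusted p = 0.935, lower in 8 of 9 pairs). It averaged 62.4 CPM in Ctl RG and 59.5 in Epi RG, 3.11 and 2.49 in IP, and 1.75 and 1.12 in N. The estimates were -0.07 in RG, -0.33 in IP and -0.64 in N, and the edgeR test among populations gave an unadjusted p of 0.0456.

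Spry4, a Sprouty inhibitor of RAS signalling, had estimates of unlike size in the 3 populations, but the difference did not pass the test. In N it measured 1.31, 1.66 and 1.38 CPM in Ctl (numbers 1 to 3) and 0.529, 0.531 and 0.634 in Epi. In IP it measured 1.83, 2.45 and 1.78 in Ctl and 1.59, 1.33 and 1.70 in Epi, and in RG 3.70, 3.46 and 5.24 in Ctl and 3.32, 4.05 and 6.20 in Epi. The treated libraries lay below all controls in N and IP and overlapped with them in RG. The share of all genes that separate so was not counted. The estimates were 0.10 in RG, -0.36 in IP and -1.36 in N. The test of a difference among populations gave an unadjusted p of 0.00336 and the shared estimate was -0.36 (-0.73 to 0.01), and neither passed after adjustment (0.935 for the shared effect by edgeR). All these levels are low.

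Immediate early genes stood near the background as well. Of 30 tested, 1 had an unadjusted p under 0.05, and the median was 0.03. Estimates lay above 0 for 20, beside 15763 of 29355 over all genes. Fos, a subunit of the AP-1 factor, measured 33.4, 42.3 and 45.9 CPM in Ctl RG and 56.8, 52.0 and 50.6 in Epi RG, where the groups did not overlap. How many of all genes separate so in RG was not counted. In IP and N it stood between 2.03 and 10.9 CPM in Ctl and between 1.53 and 11.8 in Epi, and the treatments overlapped. The shared estimate for Fos was 0.21 (-0.03 to 0.44, unadjusted p = 0.0808, adjusted p = 0.935 by edgeR), and the test among populations gave an unadjusted p of 0.178. Egr1 had 0.19 (-0.06 to 0.44). Dusp1, a nuclear phosphatase of MAP kinases, was above its control in all 9 pairs by 0.01 to 0.33 on the log2 scale, with a shared estimate of 0.16 (0.06 to 0.26, unadjusted p = 0.00374, edgeR adjusted p = 0.935). Its controls ran from 20.7 to 67.9 CPM and its treated libraries from 23.1 to 76.7.

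**Figure D3:**
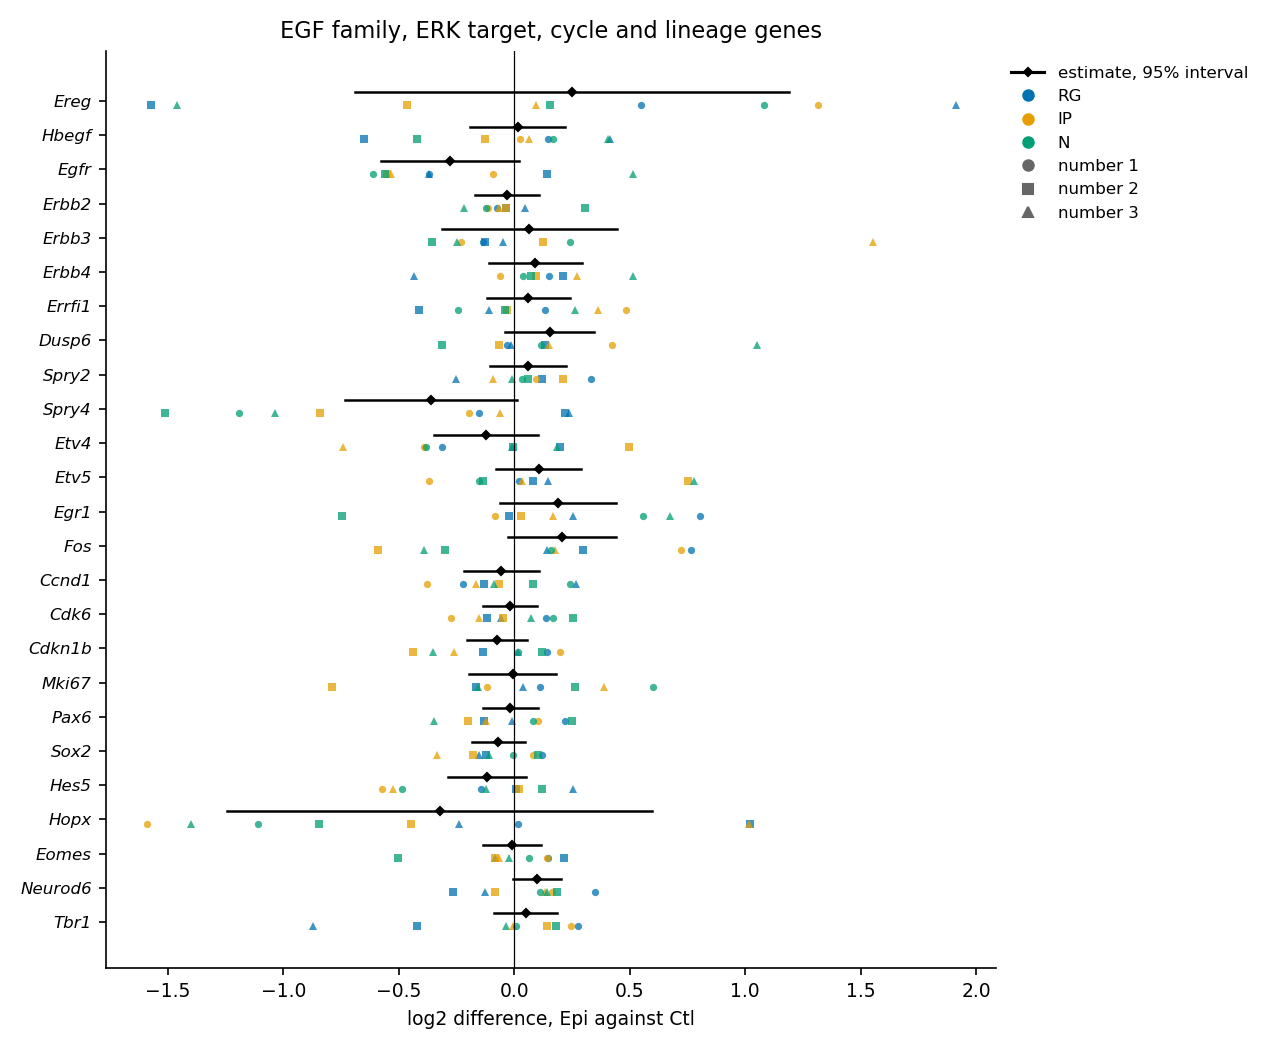
Log2 difference between Epi and Ctl in each of the 9 pairs (colour for population, shape for number) for the 25 tested panel genes, with the shared estimate and its 95% interval as a black diamond and bar. Every interval crosses 0, and Ereg, Hopx and Spry4 have the intervals that run beyond a 1.5-fold change.

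A panel of 26 genes, chosen to cover the EGF family, ERK targets, the cell cycle and the lineage, was reported whatever its outcome. Of the 25 tested, 12 estimates lay above 0 and 13 below, from -0.36 to 0.25. None had an unadjusted p under 0.05 (smallest 0.0571), none lay on 1 side of 0 in all 9 pairs, and 22 had an interval within a 1.5-fold change.

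Cell cycle genes showed no shared difference. Mki67, a protein of dividing cells, averaged 523 ± 22.4 CPM in Ctl RG and 523 ± 40.4 in Epi RG, 51.0 ± 22.9 and 42.3 ± 10.1 in IP, and 8.89 ± 0.864 and 10.6 ± 1.74 in N (SD over 3 libraries). Its shared estimate was -0.01 (-0.20 to 0.18). Ccnd1, the cyclin that growth factor signalling raises to pass the first phase of the cycle, had -0.06 (-0.22 to 0.11), its kinase partner Cdk6 -0.02 (-0.13 to 0.10) and the inhibitor Cdkn1b -0.07 (-0.20 to 0.06). Over 64 mitosis genes the median was -0.03, with 1 member at an unadjusted p under 0.05, Ect2, which acts in cytokinesis, at -0.20 (-0.37 to -0.02). Its estimate was -0.003 in RG, where it averaged 77.4 CPM in Ctl. In IP it was -0.29 and in N -0.56, at Ctl means of 7.13 and 4.08 CPM (unadjusted p = 0.0285 in the edgeR test among populations). Over 60 S phase genes the median was 0.03, and 45 were estimated above 0, beside 15763 of 29355 over all genes. In this list 3 had an unadjusted p under 0.05, all higher. Among them were Slbp, which binds histone mRNA, at 0.17 (0.04 to 0.29), and the replicative helicase subunit Mcm3 at 0.16 (0.02 to 0.31). The mitosis median ran from -0.34 to 0.26 over the 9 pairs, a wider spread than its shared value.

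Markers of the 3 populations had estimates near 0 with narrow limits. Over 24 radial glia markers the median was 0.00, 24 had an interval within 1.5-fold, and 0 had an unadjusted p under 0.05. Pax6 had a shared estimate of -0.02 (-0.14 to 0.10), Sox2, a stem cell transcription factor, -0.07 (-0.18 to 0.04), and the Notch target Hes5 -0.12 (-0.29 to 0.05). The 18 intermediate progenitor markers had a median of 0.02, and Eomes itself was at -0.01 (-0.14 to 0.12). Among the latter list Neurod1, a factor that drives neuronal differentiation, had an unadjusted p under 0.05. It measured 93.2, 101 and 133 CPM in Ctl IP and 109, 146 and 130 in Epi IP, and 183, 222 and 256 in Ctl N and 217, 268 and 261 in Epi N. The groups overlapped in both populations, with 7 of 9 pairs higher and a shared estimate of 0.20 (0.07 to 0.32, unadjusted p = 0.00329, edgeR adjusted p = 0.935).

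The 26 neuron markers had a median of 0.02, all with intervals within 1.5-fold. Crmp1, which regulates growth cones, was estimated at 0.13 (0.04 to 0.23) and Neurod2 at -0.12 (-0.22 to -0.02), the 2 members with an unadjusted p under 0.05, in opposite directions. Neurod6 had 0.10 (-0.01 to 0.20), and the deep-layer factor Tbr1 0.05 (-0.09 to 0.19). Basal radial glia are progenitors that have left the ventricle and are abundant in human neocortex. Their 12 markers had a median of -0.03 with 0 at an unadjusted p under 0.05. Hopx, a marker of them in human, was under 1 CPM on average in each group and had a wide interval, at -0.32 (-1.24 to 0.60). Synaptic genes (26) and axon guidance genes (28) both had a median of 0.02.

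Developmental pathways and metabolic genes gave medians close to 0. The median was 0.02 for 24 Notch pathway genes, -0.01 for 12 Hedgehog genes, -0.03 for 15 Wnt targets and 0.05 for 10 targets of BMP and TGF-beta. In the Hedgehog list the target and effector Gli1 measured 8.96, 12.3 and 6.59 CPM in Ctl RG and 4.64, 5.38 and 7.80 in Epi RG, and at most 0.926 CPM in the other populations. It was lower in 7 of 9 pairs, overlapped in RG, and had a shared estimate of -0.56 (-0.93 to -0.19, unadjusted p = 0.00518, edgeR adjusted p = 0.935). Hhip, which binds and restrains Hedgehog ligands, had 0.36 (0.07 to 0.66), while the pathway receptor Ptch1 was at 0.00. Glycolysis and hypoxia genes were estimated above 0 in 29 of 31 cases with a median of 0.06, and 3 had an unadjusted p under 0.05, among them the glycolytic enzyme Pgam1 at 0.22 (0.08 to 0.35) and Gapdh at 0.16 (0.01 to 0.31). Their median ran from -0.09 to 0.24 over the 9 pairs and lay below 0 in the 3 pairs of number 2. Cholesterol synthesis genes were above 0 in 22 of 25 cases, with a median of 0.06 and 0 at an unadjusted p under 0.05, and they too had a negative median in the 3 pairs of number 2 alone. Over all genes 15763 of 29355 were estimated above 0. Genes within such lists move together across libraries, so the counts above 0 are not independent.

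Stress and interferon lists were also without a called gene. The median was 0.01 for 12 genes of the unfolded protein response, of which Herpud1, a factor of protein degradation at the endoplasmic reticulum, was above control in all 9 pairs by 0.01 to 0.25, with an estimate of 0.13 (0.03 to 0.22), and the chaperone Hspa5 in 8 of 9, with 0.11 (0.02 to 0.20). Interferon and MHC class I genes had the highest median of all 42 lists, 0.13, and 4 of 31 had an unadjusted p under 0.05, all higher. Ifitm3, an antiviral membrane protein, measured 3.05, 8.88 and 8.86 CPM in Ctl RG and 10.7, 9.98 and 9.12 in Epi RG, and at most 1.19 CPM in IP and N. The groups did not overlap in RG or in IP and overlapped in N, and the pair of number 1 held the widest gap in each population. In IP the means were only 0.41 CPM in Ctl and 0.78 in Epi. How many of all genes separate so within a population was not counted. The shared estimate was 0.79 (0.30 to 1.28, unadjusted p = 0.00294, edgeR adjusted p = 0.935). Bst2 had 0.54 (0.10 to 0.97), Mx2 0.47 (0.03 to 0.91) and Irf9 0.13 (0.01 to 0.26). The list median was above 0 in 6 of 9 pairs and ran from -0.20 to 0.54.

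**Figure D4:**
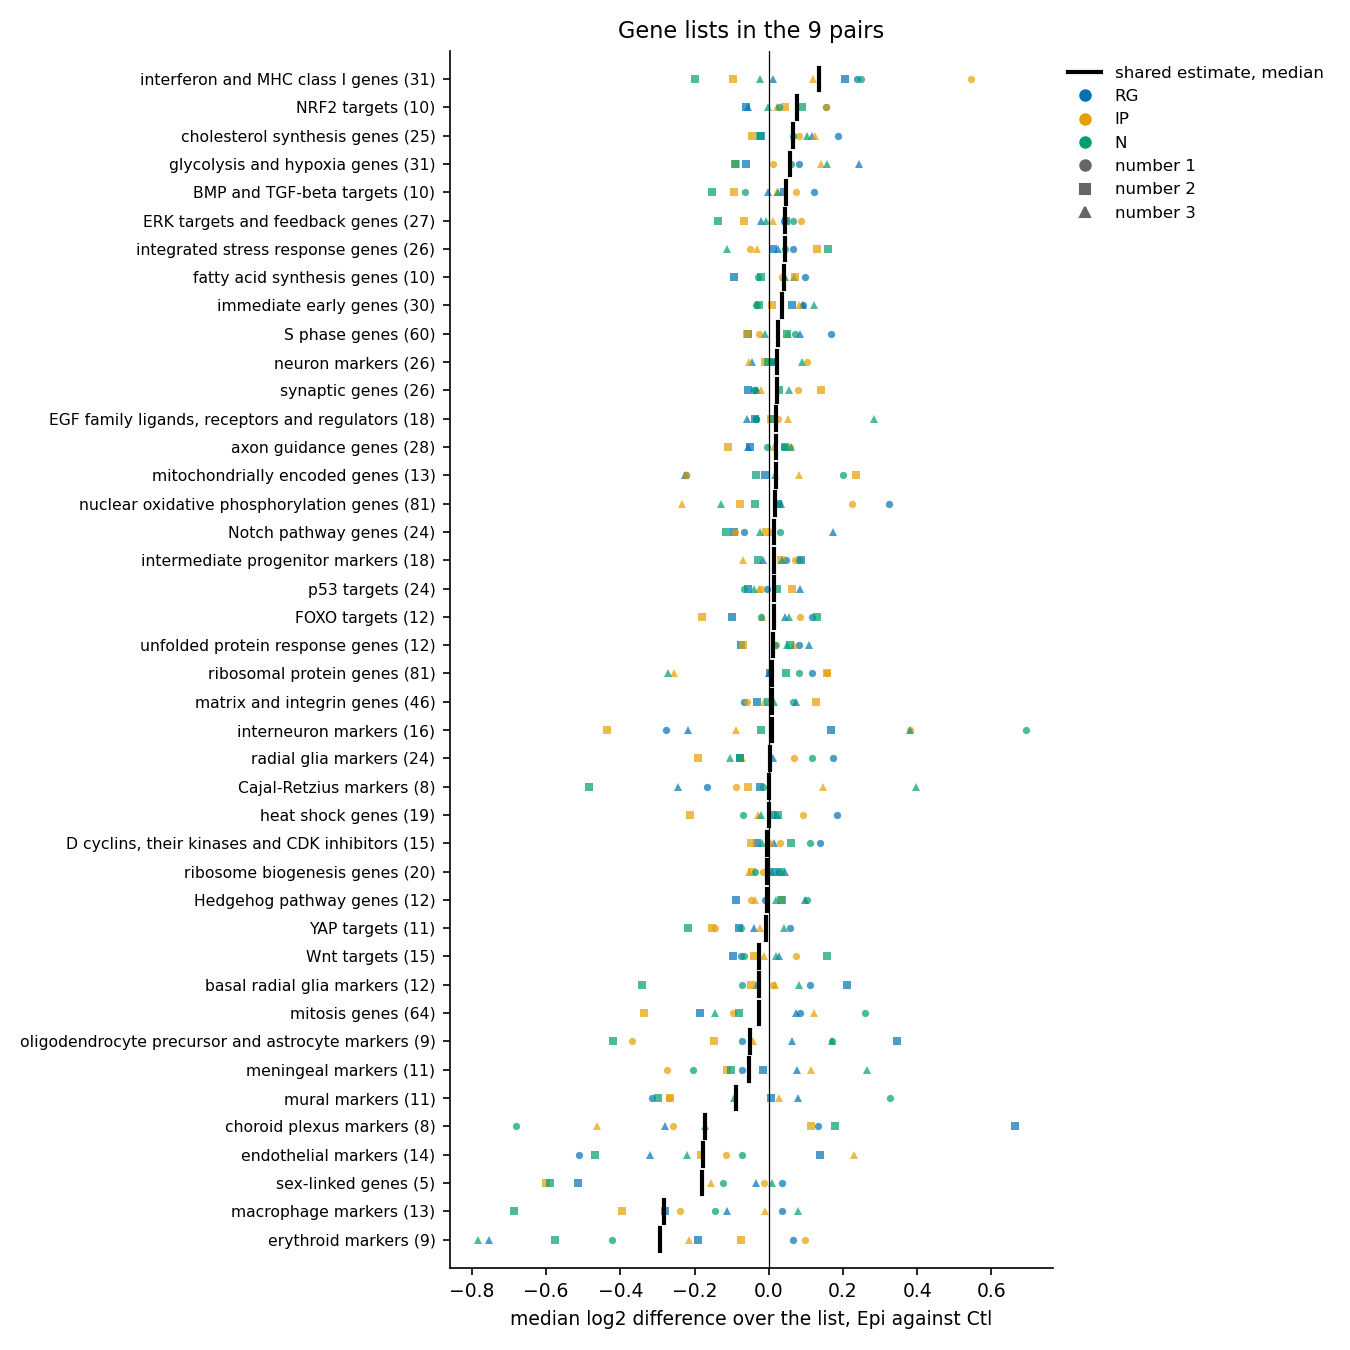
Median log2 difference (Epi against Ctl) over each of 42 gene lists in the 9 pairs (colour for population, shape for number), with the median of the shared estimates as a black bar and the number of genes tested in parentheses. The bars run from -0.29 for erythroid markers to 0.13 for interferon genes, and no list has all 9 pairs on 1 side of 0.

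Across all 42 lists, 49 of 936 distinct tested genes (5.24%) had an unadjusted p under 0.05, 25 higher and 24 lower, beside 5.12% of all genes. The median of 36 lists lay between -0.1 and 0.1. The lists outside that range, apart from the interferon genes, were those of other cell types and sex-linked genes, all on the lower side: erythroid -0.29, macrophage -0.28, sex-linked -0.18, endothelial -0.18 and choroid plexus -0.17. The cell type medians rest on wide intervals. Only 3 of 9 erythroid, 2 of 13 macrophage, 6 of 14 endothelial and 2 of 8 choroid plexus genes had one within 1.5-fold, beside 5 of 5 sex-linked genes.

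Lists of other cell types differed in level. The markers of meninges summed highest in RG, to 875 to 964 CPM in Ctl and 855 to 1089 in Epi, and were between 397 and 621 in IP and N. The treatments overlapped in each population. Within that list Igfbp2 and Fn1 had a mean log2 CPM of 8.85 and 7.42, and the other tested members, such as Col1a1 and Dcn, 1.68 or less. Mural markers summed to 141 to 162 CPM in RG and at most 47.9 elsewhere, interneuron markers to 28.3 to 285 over all libraries, and Cajal-Retzius markers to 279 to 440 in IP and at most 60.8 elsewhere. Markers of oligodendrocyte precursors and astrocytes summed to at most 40.03 CPM and those of choroid plexus to at most 42.7. The 10 erythroid genes summed to 33.2 to 65.9 CPM in Ctl RG and 27.2 to 66.3 in Epi RG, 47.3 to 88.3 and 47.0 to 101 in IP, and 87.4 to 226 and 48.6 to 171 in N, with Hbb-bh1 under 0.5 CPM. Of 9 tested, 4 had an unadjusted p under 0.05, all lower and all adult globin genes. Hbb-bs, an adult beta globin (chr7:103475741-103477303, GRCm39), measured 35.6, 24.7 and 33.8 CPM in Ctl N and 26.6, 10.8 and 10.2 in Epi N. In IP it measured 26.8, 14.4 and 25.3 in Ctl and 28.7, 13.7 and 11.4 in Epi, and in RG 19.3, 11.3 and 10.2 in Ctl and 18.2, 6.76 and 7.07 in Epi. All populations overlapped between treatments, and 8 of 9 pairs were lower. The shared estimate was -0.62 (-0.91 to -0.34, unadjusted p = 0.000204, edgeR adjusted p = 0.760). Hbb-bt, Hba-a1 and Hba-a2 had -0.52, -0.29 and -0.28, and reads of these near-identical pairs of genes may be shared in counting. In N these genes had -1.12, -0.68 and -0.76, in IP -0.31, 0.07 and 0.16, and in RG -0.09, -0.23 and -0.20. Hbb-bs had -1.08 in N, -0.37 in IP and -0.42 in RG. The edgeR test among populations gave Hbb-bt, Hba-a1 and Hba-a2 an unadjusted p of 0.00657, 0.0194 and 0.00522, and none passed after adjustment.

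Macrophage markers summed to 19.9 to 53.6 CPM in the libraries, and 10 of 15, among them Aif1, Cx3cr1, P2ry12 and the C1q genes, were under 0.5 CPM. The markers above that level with an unadjusted p under 0.05 went both ways, with Ptprc at -0.38 and Csf1r at -0.37 but Cd68 at 0.16. Cd68 made up much of the sum, at 32.8 CPM in Ctl RG, 17.9 in Ctl IP and 17.9 in Ctl N. Ptprc averaged 3.12, 3.25 and 4.17 CPM in the same groups. Endothelial markers summed to 17.3 to 32.1 CPM, with Cldn5, Ly6c1 and Klf2 under 0.5 CPM, and Slco1a4 at -0.51. Ttr, the transthyretin gene of the choroid plexus, was erratic, from 0 to 31.5 CPM in Ctl and from 0 to 7.17 in Epi, highest in the 3 control libraries of number 3 (31.5 CPM in IP, 13.7 in N and 10.4 in RG). Its shared estimate was -0.81 (-3.02 to 1.40). Without the 3 pairs of number 3, Ttr alone was called, at 3.88 (edgeR adjusted p = 0.000863). The part of other cell types in any result was not tested.

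Xlr3b had the smallest p of all genes. It belongs to a cluster of X-linked genes, and Xlr3b and its neighbour Xlr4b are known in mouse brain as imprinted genes read mainly from the maternal X. Xlr3b (chrX:72235813-72246536, GRCm39) measured 3.19, 8.21 and 12.5 CPM in Ctl RG (numbers 1 to 3) and 2.75, 5.19 and 4.69 in Epi RG. In IP it measured 4.79, 13.4 and 13.7 in Ctl and 4.31, 6.07 and 8.74 in Epi, and in N 6.12, 18.1 and 23.9 in Ctl and 6.78, 7.74 and 12.3 in Epi. Every control of numbers 2 and 3 was above its treated partner, by 0.64 to 1.40 on the log2 scale, while the 3 pairs of number 1 lay between -0.21 and 0.15 and held the lowest controls. The shared estimate was -0.73 (-1.005 to -0.46, unadjusted p = 1.60e-05, edgeR adjusted p = 0.457). Without the N pair of number 1 it was called at -0.83 (adjusted p = 0.0429 by edgeR), and without all 3 pairs of number 1 at -1.02 (adjusted p = 0.00227).

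Its neighbours in the cluster were also estimated lower. Xlr3a (chrX:72129899-72140701) ran from 0.957 to 4.86 CPM in Ctl and from 0.632 to 1.82 in Epi, with an estimate of -1.06 (-1.48 to -0.64, unadjusted p = 3.12e-05, edgeR adjusted p = 0.457). All 6 of its pairs of numbers 2 and 3 were lower, and 2 of 3 of number 1. Xlr4b had -1.15 (-1.78 to -0.52) and Xlr3c -0.63 (-1.30 to 0.05), both near or under 1 CPM on average. These copies are close in sequence. Of the 50-base windows of the annotated transcript Xlr3b-201, 45.4% also occur in Xlr3a transcripts and 50.8% in Xlr3c transcripts (GENCODE transcripts), so reads may be shared between them in counting and the genes are not separate observations. The promoters are shown to let the likeness be seen: both are 300 bases from RefSeq on GRCm38.p6 that end 50 bases after the start, written 5′ to 3′ on the gene's strand, with the longest run that both hold, 58 bases, in capitals.
Xlr3b, chrX:73191929-73192228, + strand: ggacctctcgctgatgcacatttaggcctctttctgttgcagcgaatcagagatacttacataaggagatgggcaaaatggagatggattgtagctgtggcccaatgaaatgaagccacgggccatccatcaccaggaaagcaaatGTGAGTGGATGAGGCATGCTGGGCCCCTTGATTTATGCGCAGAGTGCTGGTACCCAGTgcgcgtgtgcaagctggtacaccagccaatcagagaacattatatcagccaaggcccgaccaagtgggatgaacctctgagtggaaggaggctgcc
Xlr3a, chrX:73097046-73097345, - strand: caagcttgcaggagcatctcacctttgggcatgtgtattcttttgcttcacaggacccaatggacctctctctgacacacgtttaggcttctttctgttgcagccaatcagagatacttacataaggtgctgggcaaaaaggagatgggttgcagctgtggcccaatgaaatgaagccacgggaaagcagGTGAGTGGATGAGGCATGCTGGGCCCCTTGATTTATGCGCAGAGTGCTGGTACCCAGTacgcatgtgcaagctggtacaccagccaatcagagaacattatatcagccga
The shared run lies upstream of the annotated start in both, closer to it in Xlr3a.

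Sex-linked genes were measured in treated and control libraries of the same number. Xist, the RNA of the inactive X in female cells, measured 265 CPM in Ctl RG and 394 in Epi RG of number 2, 171 and 297 in IP and 224 and 328 in N. The sum of 4 Y-linked genes (Ddx3y, Eif2s3y, Kdm5d and Uty) measured 124 and 79.3 CPM, 125 and 81.5, and 141 and 84.0 in the same libraries. So in number 2 all 3 Epi libraries had more Xist and fewer Y-linked transcripts than their controls. In number 1 Xist stayed between 124 and 175 CPM and the Y-linked sum between 162 and 193 in both treatments. In number 3 the Y-linked sum was 105, 86.8 and 99.6 CPM in Ctl and 92.3, 74.8 and 101 in Epi (RG, IP and N), and Xist was 273, 240 and 255 CPM in Ctl and 320, 276 and 244 in Epi. The RG and IP pairs of number 3 thus differed in the same direction as those of number 2, by less, and the N pair did not. Every library held both Xist and Y-linked transcripts. Eif2s3y had a shared estimate of -0.28 (-0.43 to -0.14, adjusted p = 0.873 by edgeR), Ddx3y -0.34 and Xist 0.25, none of them called. Eif2s3y was among the 10 genes with the smallest p of those with an ordinary symbol and a mean log2 CPM of at least 1. Treated and control libraries of number 2, and those of RG and IP of number 3, thus differed in these transcripts beside the treatment. Their part in other genes was not tested beyond the following fit. With the log2 ratio of Y-linked to Xist transcripts as a covariate, chosen after seeing the data, 0 genes were called and 1968 had an unadjusted p under 0.05.

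**Figure D5:**
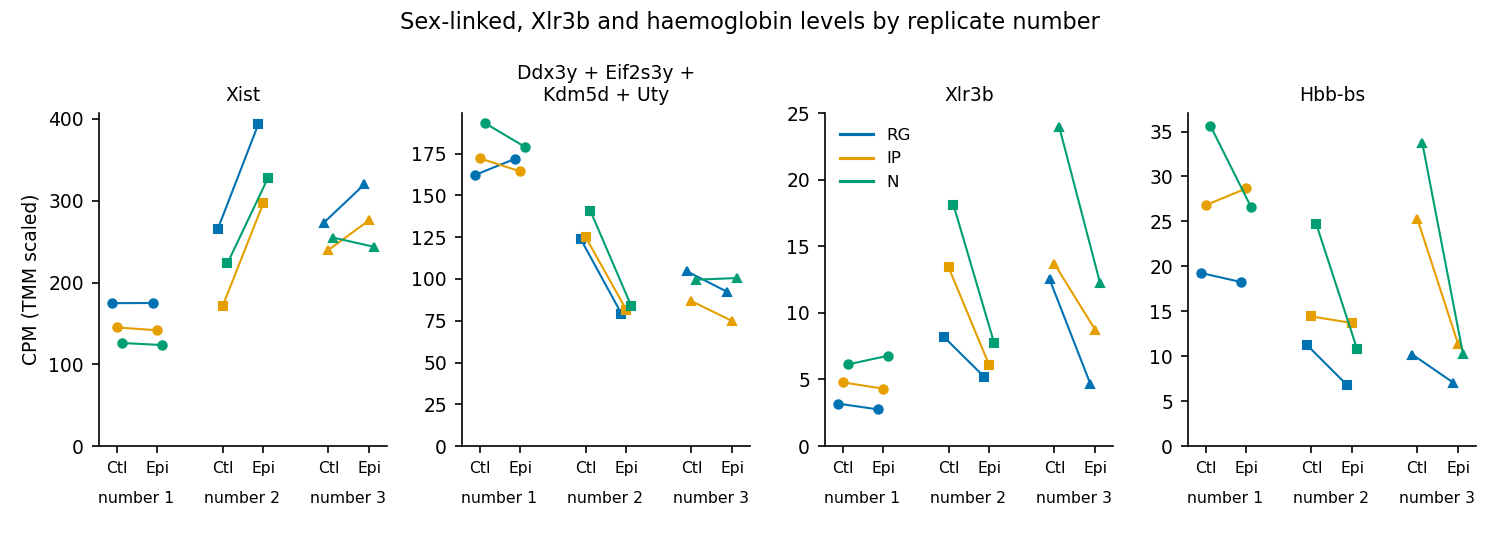
CPM of Xist, of the sum of 4 Y-linked genes, of Xlr3b and of Hbb-bs in each library, with lines that join Ctl to Epi within a population (colour) and number (position). In number 2 all 3 lines slope upward for Xist and downward for the Y-linked sum, and for Xlr3b the lines of numbers 2 and 3 slope downward while those of number 1 are nearly level.

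The other genes among the 10 with the smallest p had small estimates or low levels, and none was called. H19, an imprinted noncoding RNA read from the maternal allele (chr7:142129266-142131880), was lower in all 9 pairs, by 0.03 to 0.90. It measured 300, 206 and 205 CPM in Ctl RG and 215, 202 and 166 in Epi RG, 16.1, 10.5 and 11.8 in Ctl IP and 15.1, 9.04 and 8.49 in Epi IP, and 2.43, 2.11 and 1.64 in Ctl N and 2.11, 1.59 and 0.845 in Epi N. Treatments overlapped in each population, and the shared estimate was -0.29 (-0.42 to -0.15, adjusted p = 0.760 by edgeR). Psmb7, a catalytic subunit of the proteasome (chr2:38478048-38534099), was higher in all 9 pairs by 0.06 to 0.32. It averaged 51.2 ± 8.39 CPM in Ctl RG and 57.3 ± 11.3 in Epi RG, 45.8 ± 9.14 and 54.3 ± 14.51 in IP, and 46.2 ± 11.2 and 52.4 ± 11.1 in N (SD over 3 libraries), so the shift within pairs was smaller than the spread between numbers. Its shared estimate was 0.19 (0.10 to 0.29, adjusted p = 0.856 by edgeR). Psmb7 overlaps Nek6 in the annotation, and H19 holds the miRNA gene Mir675.

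Fam160b2 was lower in all 9 pairs, at -0.23 (-0.35 to -0.12), and Lrrc75aos2, a noncoding gene that overlaps Lrrc75a, was higher in all 9, at 0.39 (0.18 to 0.60). Since the libraries are not stranded, reads of Lrrc75aos2 and Lrrc75a cannot be told apart where they overlap. Sipa1l2, a regulator of the small GTPase Rap, had 0.18 (0.09 to 0.27), higher in 8 of 9 pairs. C1qtnf4, a secreted protein of the C1q and TNF family, had -0.36 (-0.55 to -0.17). It was at 58.6 ± 6.44 CPM in Ctl N and 38.5 ± 7.70 in Epi N but at 16.1 ± 0.345 and 15.3 ± 1.74 in RG (SD over 3 libraries), and the test among populations gave an unadjusted p of 0.0479. Vmn2r76, a vomeronasal receptor gene of a large family, was at 2.26 to 8.83 CPM with an estimate of -0.57 (-0.85 to -0.30).

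Agreement in direction over all 9 pairs was found for 109 genes above control (0.371%) and 67 below (0.228%). Of these, 92 had a mean log2 CPM of 3 or more, and the largest shared estimate among them was that of H19, at -0.29 (H19 is described above).

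The 9 pairs did not share a common pattern of differences across genes. Over 11711 genes the pair differences correlated at a median of 0.05 between pairs of the same number (-0.04 to 0.47, 9 combinations) and -0.05 between pairs of other numbers (-0.37 to 0.19, 27 combinations). These are descriptions across genes, which are not independent replicates. Each library belongs to a single pair, but libraries of the same number may share a source. The spread of the differences over genes (SD, log2) was 0.17 to 0.23 in 8 pairs and 0.34 in the IP pair of number 2, where 8.77% of genes differed by more than 1.5-fold, beside 0.47% to 2.47% in the others. Without that pair 0 genes were called for a shared effect. Prph, which encodes the intermediate filament peripherin, was the 1 gene that DESeq2 called for a difference among populations. It averaged 39.0 ± 11.8 CPM in Ctl RG and 47.6 ± 23.5 in Epi RG, 2.59 ± 1.08 and 3.30 ± 0.855 in IP, and 1.91 ± 0.877 and 0.717 ± 0.0469 in N (SD over 3 libraries), and in edgeR's test its unadjusted p for the difference was 0.000142.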

How the data were processed

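The authors deposited 1 table of raw counts by gene and library. The submitters' processing notes name bcl2fastq 2.20.0, cutadapt 2.6, featureCounts 2.0.1 and the build GRCm39. The aligner was not given in the sources used here. Per the labels' protocols, libraries were made by SmartSeq2, a method without strand information or molecular identifiers, so PCR copies count as reads. The table's 55508 rows comprised 55416 genes, 1492 of them without a symbol, and 92 spike-ins that were left out (at most 3.05e-05% of a library). The headers for strand and gene type were exchanged and were set right from the values.

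In R 4.3.3, genes were kept by filterByExpr of edgeR 4.0.16 over the 6 groups, and libraries were scaled by TMM factors. The quasi-likelihood fit held the 9 pairs as blocks and 1 treatment term, two-sided, with Benjamini-Hochberg adjustment over all 29355 genes and calls under 0.05. A second fit tested whether the treatment term differed among populations. CPM were computed here from the deposited counts with those factors; pair differences are on log2 CPM with a prior count of 2. Single values were tested by an exact permutation test that flips the sign of the 9 pair differences (512 arrangements). The fits were tested on simulated counts.

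The numbers pair the libraries: after removal of group means, a Ctl library and the Epi library of its number correlated over 11711 genes at 0.17 to 0.65 in the 3 populations, and libraries of unlike number at -0.60 to 0.10. Same-numbered libraries of different populations also correlated, at 0.08 to 0.63, so the 9 pairs may hold 3 independent sources rather than 9. Summing counts over the 3 populations was an alternative for that reason.

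Genes named are the 10 with the smallest p (1 or more as mean log2 CPM, and an ordinary symbol), since none was called, and the panel of 26; list members with an unadjusted p under 0.05, Ttr, Xist and the Y-linked genes, Ythdc1, Prph and the neighbours of Xlr3b were chosen after their values were seen. The members and lists were chosen with earlier results of these data known. Alternatives were RLE and upper-quartile factors, other filters, the robust fit, DESeq2 1.42.0, limma 3.58.1 voom, other blocks, thinning, summed counts, and leaving out pairs, numbers or populations; a covariate of Y-linked to Xist transcripts and a cutoff of 3 on the mean log2 CPM were chosen after seeing the data. Sequences were read from RefSeq (GRCm38.p6) and GENCODE tables and do not enter any count.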

Additional observations from a re-analysis of the deposited data

Results flagged for a closer look

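A gap of 1 pair from the others that is wide for 9 values was found in 6 of 113 series examined, and chance gives about 1 in 20. For Erbb2 the N pair of number 2 lay at 0.3046 on the log2 scale, beside -0.2186 to 0.04611 in the other 8 pairs. For Erbb3 the IP pair of number 3 lay at 1.555, beside -0.3567 to 0.2428. For Eomes the N pair of number 2 lay at -0.5031, beside -0.08435 to 0.2163. The median difference of the EGF family list was 0.2842 in the N pair of number 3, beside -0.05874 to 0.05196, and that of the Notch list was 0.1738 in the RG pair of number 3, beside -0.1154 to 0.02935. The spread of the differences over genes was 0.3437 in the IP pair of number 2, beside 0.1727 to 0.2329 in the others.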

How the results depend on the processing

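The count of 0 genes called for a shared effect held in 22 of 28 alternatives, with 436 to 2492 genes at an unadjusted p under 0.05 over all 28. No filter gave 25 (5 higher, 20 lower), DESeq2 gave 2 (both lower) and counts summed over the populations, with number as the replicate block, gave 1 (lower). The gene called on summed counts was an unnamed miRNA gene, at -0.68 (adjusted p = 0.000473 by edgeR), and the same gene was among the 25 called with no filter. Leaving out a pair or a number gave 0 to 1 called (0 to 1 higher, 0 to 1 lower): Xlr3b without the N pair of number 1 or without number 1, and Ttr without number 3. For a difference among populations no filter gave 34 and DESeq2 1, beside 0 in the others run. That test was not run on summed counts or without a population. The cause of these changes was not tested. Without the replicate block 0 genes were called (812 at an unadjusted p under 0.05), and with population and number as additive blocks 0 (1461), so the pairing changed no call.

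Some log2 fold changes near 0 or of erratic genes changed sign, none of them called in the fit reported, and are listed here. With RLE factors, Mki67 was at 0.00472 and Eomes at 0.00142. With upper-quartile factors, Hbegf was at -0.0166. With no filter, Cdk6 was at 0.00144, Mki67 at 0.0132 and Eomes at 0.00695. By DESeq2, Mki67 was at 0.0248, Eomes at 0.00130, Ttr at 0.863 and Prph at -0.143. By limma voom, Mki67 was at 0.00601, Hes5 at 0.00608 and Eomes at 0.0166. With no replicate block, Prph was at -0.0171. With thinned libraries, Hbegf was at -0.0249 and Cdk6 at 0.0223. With summed counts, Pax6 was at 0.00890, Hes5 at 0.0224, Eomes at 0.0643 and Ttr at 0.292. Without RG, Prph was at -0.309. Without IP, Erbb3 was at -0.115, Errfi1 at -0.0595, Ccnd1 at 0.00816, Cdk6 at 0.0416, Mki67 at 0.0736, Pax6 at 0.00795, Ttr at 0.0991 and Prph at -0.00718. Without N, Hbegf was at -0.00345, Hopx at 0.0224 and Eomes at 0.0381. With the Y-linked to Xist covariate, Etv5 was at -0.0107, Mki67 at 0.158, Pax6 at 0.00496, Eomes at 0.0636, Xist at -0.0178, Kdm5d at 0.0183 and Uty at 0.114. At a mean log2 CPM of at least 1, Hbegf was at -0.00535. At a mean log2 CPM of at least 3, Hbegf was at -0.00730. Over the 12 fits that each left out a pair or a number, estimates ran as follows: Hbegf -0.121 to 0.198, Cdk6 -0.0426 to 0.0186, Mki67 -0.0870 to 0.134, Pax6 -0.0978 to 0.0538, Ereg -0.304 to 0.719, Eomes -0.0800 to 0.0390 and Ttr -2.71 to 3.88. The rest of these ranges were Prph -0.0979 to 0.239, Erbb3 -0.102 to 0.155, Erbb2 -0.0534 to 0.00550, Fos -0.0338 to 0.393, Tbr1 -0.00946 to 0.125, Uty -0.319 to 0.0624 and Errfi1 -0.00498 to 0.167.

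Depth limits the genes under a mean log2 CPM of 1, where the median half-width of the interval was 0.60.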
